A study of Homo sapiens with 9 samples.

Results

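NFE2L2, KEAP1 and 7 genes controlled by the transcription factor NRF2 (HMOX1, NQO1, GCLC, GCLM, TXNRD1, SRXN1 and OSGIN1) were followed in A375 cells, a human melanoma line with mutant BRAF. The 9 genes were chosen by name, as known members of the pathway, when earlier results of these data were known. All 9 were among the 26475 gene symbols of the count table, and all 9 passed the filter on low counts, which kept 16417 genes for testing. Cells were given the vehicle DMSO or TP-472, which inhibits the bromodomain proteins BRD9 and BRD7, at 5 µM or at 10 µM. RNA was sequenced after 24 h in 3 biological replicates per group. Every group came from this cell line at this time point, so the values describe 1 line and 1 duration of treatment.

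NRF2, the protein product of NFE2L2, is made continuously and destroyed continuously in unstressed cells, because KEAP1 presents it to a CUL3 ubiquitin ligase. Oxidants and electrophiles modify cysteines of KEAP1 and slow that destruction, after which NRF2 pairs with a small MAF protein and binds antioxidant response elements (AREs) near genes of glutathione, thioredoxin, heme and quinone metabolism. BACH1 occupies the same elements as a repressor, above all at HMOX1. Since NRF2 is controlled largely as a protein, its mRNA level is not a reading of its activity.

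The libraries held 42483091 to 51298130 counts each, of which 36411 to 56045 fell on the 9 genes. Replicate 1 at 10 µM differed from the other libraries of its group. The excess spread between it and replicates 2 and 3 (chi-square per gene of 202 and 325) was larger than that between replicates 2 and 3 (47.5), and 8.01% of the variance of its deviation from the group mean went with transcript length and GC content, against 3.39% and 3.94% in replicates 2 and 3 and 0.374% or less in each DMSO or 5 µM library. The share of counts on ribosomal RNA genes was 8.79% to 10.9% with DMSO, 10.6% to 16.6% with 5 µM and 8.20% to 19.9% with 10 µM. Of 9 melanocyte lineage markers, SOX10 (417 ± 11.0 CPM, counts scaled to library size, SD, n = 3) and MITF (31.9 ± 1.79 CPM) were expressed in DMSO, while the pigment gene MLANA was at 0.173 ± 0.0358 CPM and TYR had 0 counts in every library. Of 10 markers of leukocytes, endothelium, epithelium and fibroblasts, CD3E had 0 counts in every library and KRT14 was the most abundant in DMSO at 6.92 ± 0.461 CPM.

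The windows around the start sites of the genes were searched for the core of the ARE, TGACNNNGC, on both strands. RefSeq start-site windows (GRCh38.p14, from 250 bases before the start to 50 after it) were present for 8 of the 9 genes, with 11 windows in all since NFE2L2, KEAP1 and TXNRD1 had a pair each. HMOX1 had no entry. The core was found in 4 of the 11 windows, which belong to KEAP1, GCLM and TXNRD1, and in 13.3% of all 35116 windows of this length. The matches are shown in the orientation of the gene, with 10 flanking bases on each side and the matched bases in capitals. They are all the copies of the core found in these windows.
GCLM, from -34 to -26: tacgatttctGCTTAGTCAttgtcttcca
KEAP1, second window, from -54 to -46: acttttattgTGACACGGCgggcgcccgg
KEAP1, second window, from -31 to -23: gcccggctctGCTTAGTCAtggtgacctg
TXNRD1, first window, from -99 to -91: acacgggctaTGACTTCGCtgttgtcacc
TXNRD1, first window, from -8 to 0: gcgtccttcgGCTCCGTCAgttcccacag
TXNRD1, second window, from -102 to -94: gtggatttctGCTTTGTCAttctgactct
Positions count from 0 at the first transcribed base. The matches in GCLM and the later match in KEAP1 were the same 9 bases on the strand opposite the gene, TGACTAAGC. The GCLM window, chr1:93909381-93909680 on the minus strand, is shown in full. Of the 8 genes searched, only GCLM both held the core and passed the test described below at each dose. SRXN1 passed at each dose without the core in its window, and KEAP1 and TXNRD1 held the core and passed at neither dose. HMOX1, which passed at each dose, could not be searched. A link between the core and the response was not tested.
GCLM: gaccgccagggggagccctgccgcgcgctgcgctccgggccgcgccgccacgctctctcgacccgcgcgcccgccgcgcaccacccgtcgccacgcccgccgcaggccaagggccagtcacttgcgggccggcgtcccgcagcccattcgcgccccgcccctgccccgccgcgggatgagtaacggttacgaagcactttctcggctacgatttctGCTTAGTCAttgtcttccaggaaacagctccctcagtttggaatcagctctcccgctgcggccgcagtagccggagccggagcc
A match describes these letters only. AREs that lie outside these windows were not searched.

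At 10 µM TP-472 6 of the 9 genes rose against DMSO and 0 fell, where 16.4% of all genes tested rose and 18% fell, 34.3% in all (edgeR's quasi-likelihood test, Benjamini-Hochberg adjusted p under 0.05 over all genes tested). The 6 were HMOX1, OSGIN1, GCLM, SRXN1, NFE2L2 and GCLC, in order of falling log2 fold change. KEAP1, NQO1 and TXNRD1 did not pass the test. The count of genes that fell was also 0 at an unadjusted p under 0.05 and with DESeq2. The median log2 fold change of the 9 genes was 0.33, beside 0.01 over all genes tested. With 10 µM replicate 1 left out, 8 of the 9 genes rose at 10 µM and 0 fell, where 23% of all genes rose and 25.8% fell, and the genes added were KEAP1 and TXNRD1. At a fold change of at least 1.5 4 of the 9 were higher at 10 µM, beside 8.57% of all genes higher and 10.5% lower. In 7 of the 9 every library at 10 µM lay above every DMSO library and in 0 below, beside 23.4% of all genes above and 26% below. In these bulk libraries less or more RNA per cell cannot be told apart from a change in the share of cells that express a gene.

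At 5 µM 3 of the 9 genes rose, namely HMOX1, GCLM and SRXN1, and 0 fell, where 4.4% of all genes tested rose and 5.81% fell, 10.2% in all. The count that fell was 0 also at an unadjusted p under 0.05 and with DESeq2. The median log2 fold change of the 9 genes was 0.22. At a fold change of at least 1.5 only HMOX1 was higher, beside 2.14% of all genes higher and 2.72% lower. All 5 µM libraries lay above DMSO in 7 of the 9 genes and below in 1 (NQO1), beside 23.7% of all genes above and 25% below. The count of genes that passed the test at 5 µM depended on the libraries. Without 10 µM replicate 1, which enters through the shared estimate of the spread, the scaling and the filter, 6 genes rose and 1 fell. There 16.5% of all genes rose and 17.6% fell. Both doses were compared with the same DMSO libraries, so the values at 5 µM and 10 µM are not independent of each other.

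**Figure D1:**
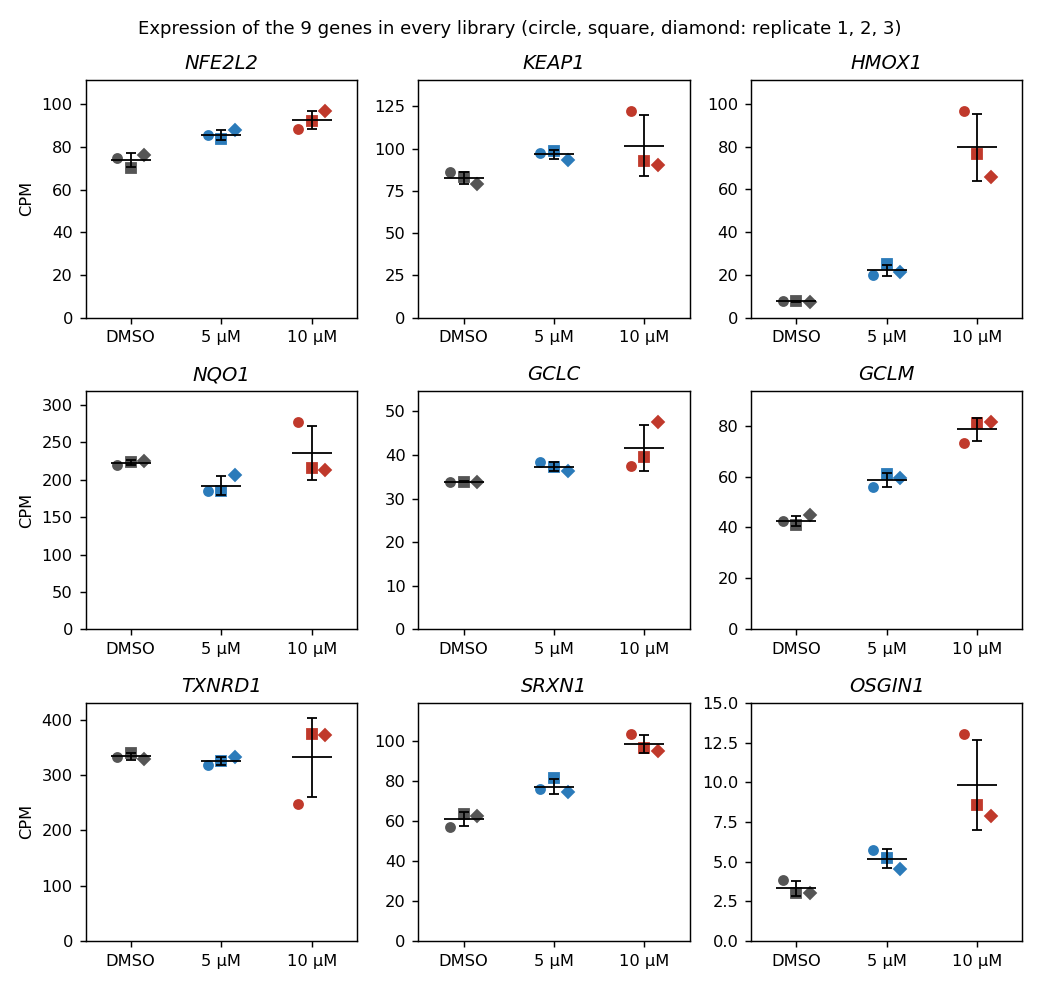
Expression of each of the 9 genes in CPM (vertical axes, from 0) in the 3 libraries of each group (horizontal axes), with circles, squares and diamonds for replicates 1, 2 and 3, the long bar for the mean and the error bar for the SD. HMOX1, GCLM, SRXN1, OSGIN1 and NFE2L2 increase from DMSO to 5 µM to 10 µM with no overlap between groups. Replicate 1 at 10 µM (red circle) lies away from the other red points in KEAP1, NQO1 and TXNRD1. The red circle is also the highest red point in HMOX1, OSGIN1 and SRXN1 and the lowest in NFE2L2, GCLC and GCLM.

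HMOX1 encodes heme oxygenase 1, which breaks heme down to biliverdin, iron and carbon monoxide. It lies on chromosome 22 from 35380361 to 35394214 (plus strand, GRCh38, GENCODE release 29). HMOX1 was at 7.95, 7.82 and 7.59 CPM in the DMSO libraries, at 19.9, 25.0 and 21.6 CPM at 5 µM and at 96.7, 76.5 and 65.9 CPM at 10 µM. The 3 groups did not overlap, and the lowest library at 10 µM was above the highest at 5 µM. At 5 µM the log2 fold change was 1.51 (standard error, SE, 0.15, edgeR quasi-likelihood test, adjusted p = 0.000245) and 3.36 at 10 µM (SE 0.15, adjusted p = 4.84e-07), or 2.85-fold and 10.2-fold. The step from 5 µM to 10 µM, 1.84 on the log2 scale, also passed the test (SE 0.14, adjusted p = 9.75e-05). These 3 calls held under all 19 alternative fits, with the change at 10 µM between 3.19 and 3.48. The highest of its libraries was 10 µM replicate 1, and without it the change at 10 µM was 3.19. HMOX2, the paralog that is regarded as constitutive, is described with the iron and heme genes. The ratio of HMOX1 to HMOX2 counts was 0.139 to 0.150 with DMSO, 0.290 to 0.351 with 5 µM and 0.738 to 0.927 with 10 µM. These ratios did not overlap between groups (two-sided exact permutation test, p = 0.1 for each pair of groups, the smallest p that 3 against 3 libraries can give).

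GCLC and GCLM encode the catalytic and the modifier subunit of glutamate-cysteine ligase, the enzyme that limits the rate of glutathione synthesis. GCLM, on chromosome 1 from 93885205 to 93909456 (minus strand), was at 42.4, 40.9 and 44.7 CPM in DMSO, at 55.9, 61.1 and 59.3 CPM at 5 µM and at 73.4, 81.2 and 81.3 CPM at 10 µM. The groups did not overlap. The log2 fold change of GCLM was 0.46 at 5 µM (SE 0.08, edgeR quasi-likelihood test, adjusted p = 0.00516) and 0.88 at 10 µM (SE 0.08, adjusted p = 2.68e-05). From 5 µM to 10 µM it rose by 0.42 (SE 0.08, adjusted p = 0.0106), a call that was lost without 5 µM replicate 1 (adjusted p = 0.0600) or 5 µM replicate 3 (adjusted p = 0.0526), or with only the compared groups in the fit (adjusted p = 0.0701).

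GCLC, on chromosome 6 from 53497341 to 53616970 (minus strand), changed less. It was at 33.7, 33.9 and 33.8 CPM in DMSO, at 38.4, 37.2 and 36.3 CPM at 5 µM and at 37.6, 39.4 and 47.5 CPM at 10 µM. The treated libraries all lay above DMSO, while those of both doses overlapped. At 10 µM the log2 fold change of GCLC was 0.29 (SE 0.09, edgeR quasi-likelihood test, adjusted p = 0.0354), and at 5 µM it was 0.14 (95% confidence interval -0.07 to 0.35, adjusted p = 0.424). The call at 10 µM was near the threshold. It was lost in 10 of 19 alternatives, among them the removal of any DMSO library (adjusted p = 0.107 without replicate 1, 0.110 without replicate 2 and 0.110 without replicate 3), of any 5 µM library (adjusted p = 0.0575, 0.0609 and 0.0613 without replicates 1, 2 and 3) or of 10 µM replicate 3, without which the change was 0.19 (adjusted p = 0.0890). The ratio of GCLM to GCLC counts was 1.21 to 1.32 with DMSO, 1.46 to 1.64 with 5 µM and 1.71 to 2.06 with 10 µM, with no overlap between groups (two-sided exact permutation test, p = 0.1 for each pair of groups, the smallest p possible).

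TXNRD1 and SRXN1 belong to the thioredoxin system. SRXN1 encodes sulfiredoxin, which restores overoxidised peroxiredoxins, and lies on chromosome 20 from 646615 to 653370 (minus strand). It was at 57.2, 63.7 and 62.8 CPM in DMSO, at 75.9, 81.4 and 74.7 CPM at 5 µM and at 104, 96.6 and 95.1 CPM at 10 µM, again without overlap between groups. The log2 fold change of SRXN1 was 0.34 at 5 µM (SE 0.08, edgeR quasi-likelihood test, adjusted p = 0.0220), 0.69 at 10 µM (SE 0.08, adjusted p = 0.000122) and 0.35 from 5 µM to 10 µM (SE 0.08, adjusted p = 0.0229). The change at 10 µM held under all 19 alternatives. The call at 5 µM was lost without any DMSO library (adjusted p = 0.128, 0.0716 and 0.0811 without replicates 1, 2 and 3) or any 5 µM library (adjusted p = 0.0679, 0.0982 and 0.0616), and the step between doses without DMSO replicate 2 or 3 (adjusted p = 0.0540 and 0.0560) or any 5 µM library (adjusted p = 0.0959, 0.0567 and 0.109), or with only the compared groups in the fit (adjusted p = 0.0975). In GENCODE, 85% of the exonic bases of SRXN1 are shared with another gene on the same strand, AL121758.1, whose symbol has no row in the count table, so reads of that gene could be counted as SRXN1.

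TXNRD1 encodes the cytosolic thioredoxin reductase, a selenoprotein that keeps thioredoxin reduced, and lies on chromosome 12 from 104215779 to 104350305 (plus strand). TXNRD1 was at 333, 340 and 328 CPM in DMSO, at 319, 325 and 333 CPM at 5 µM and at 248, 374 and 372 CPM at 10 µM. At 10 µM replicate 1 was below every other library and replicates 2 and 3 were above every other library. The log2 fold change was -0.04 at 5 µM (95% confidence interval -0.34 to 0.26, edgeR quasi-likelihood test, adjusted p = 0.917) and -0.01 at 10 µM (-0.31 to 0.29, adjusted p = 0.972). When 10 µM replicate 1 was left out it was 0.16 at 10 µM (SE 0.03, adjusted p = 0.00109) and 0.20 from 5 µM to 10 µM (SE 0.03, adjusted p = 0.000587), so the call rested on this library. With all libraries the change was close to 0 and its sign also varied with the scaling and the filter. What set this library apart was not tested for TXNRD1.

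NQO1 encodes a quinone reductase that passes electron pairs from NADH or NADPH to quinones, and lies on chromosome 16 from 69706996 to 69726951 (minus strand). It was at 219, 224 and 225 CPM in DMSO, at 185, 185 and 206 CPM at 5 µM and at 277, 216 and 213 CPM at 10 µM. The 5 µM libraries lay below DMSO, and at 10 µM replicate 1 lay above DMSO while replicates 2 and 3 lay below it. Its log2 fold change of -0.21 at 5 µM (95% confidence interval -0.44 to 0.02, edgeR quasi-likelihood test, adjusted p = 0.243) and of 0.08 at 10 µM (-0.15 to 0.31, adjusted p = 0.595) did not pass the test. In the fit without that replicate, NQO1 fell by 0.21 at 5 µM (SE 0.04, adjusted p = 0.000990), and its change at 10 µM was -0.06 (adjusted p = 0.357). With only the compared groups in the fit, NQO1 also fell at 5 µM (adjusted p = 0.00077), while 17 of 19 alternatives kept it uncalled at that dose. Of the exonic bases of NQO1, 18.4% are shared with a gene on the opposite strand, AC092115.2, where the paper describes libraries that keep the strand and the sources used here do not say if the counting was by strand.

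OSGIN1, oxidative stress induced growth inhibitor 1, lies on chromosome 16 from 83948282 to 83966332 (plus strand) and was the least abundant of the 9 genes, with 129 to 190 counts in the DMSO libraries. It was at 3.82, 3.05 and 3.05 CPM in DMSO, at 5.76, 5.21 and 4.56 CPM at 5 µM and at 13.1, 8.57 and 7.87 CPM at 10 µM. The groups did not overlap, and 10 µM replicate 1 was the highest library. The log2 fold change of OSGIN1 at 10 µM was 1.57 (SE 0.21, edgeR quasi-likelihood test, adjusted p = 0.000414), or 1.31 without 10 µM replicate 1 (adjusted p = 9.83e-06), and this call held under all 19 alternatives. At 5 µM the change of 0.65 did not pass the test (95% confidence interval 0.17 to 1.12, adjusted p = 0.0881). It passed in 5 of 19 alternatives, among them the fit without 10 µM replicate 1, at 0.64 (adjusted p = 0.00455), and DESeq2 (adjusted p = 0.0409). The step from 5 µM to 10 µM was 0.93 (SE 0.21, adjusted p = 0.0258), and was lost without 5 µM replicate 1, 2 or 3 (adjusted p = 0.0652, 0.0935 and 0.109) or with only the compared groups in the fit (adjusted p = 0.0843). Of the exonic bases of OSGIN1, 9.7% are shared with AC009119.2 on the same strand, whose symbol has no row in the count table.

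Of the regulator genes themselves, NFE2L2 lies on chromosome 2 from 177227595 to 177392697 (minus strand) and KEAP1 on chromosome 19 from 10486120 to 10503741 (minus strand). Of the exonic bases of NFE2L2, 10.8% are shared with AC019080.1 on the same strand, whose symbol has no row in the count table. A further share, 5.39%, overlaps AGPS and AC079305.1 on the opposite strand, of which 1 has a row. NFE2L2 was at 74.9, 70.1 and 76.2 CPM in DMSO, at 85.4, 83.5 and 87.9 CPM at 5 µM and at 88.4, 92.3 and 96.9 CPM at 10 µM, with no overlap between groups. It rose by 0.33 on the log2 scale at 10 µM (SE 0.07, edgeR quasi-likelihood test, adjusted p = 0.00569), a call that held under all 19 alternatives. At 5 µM its change was 0.22 (95% confidence interval 0.06 to 0.37, adjusted p = 0.0880), which passed the test without 10 µM replicate 1 (adjusted p = 0.00204). It also passed in DESeq2 (adjusted p = 0.02295), and in edgeR with only the compared groups (adjusted p = 0.00118) or the length and GC trend removed (adjusted p = 0.0307). This call at 5 µM was gained in 4 of 19 alternatives.

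KEAP1 was at 85.9, 83.0 and 79.1 CPM in DMSO, at 97.5, 98.6 and 93.5 CPM at 5 µM and at 122, 92.5 and 90.3 CPM at 10 µM. All 6 treated libraries were above DMSO, and 10 µM replicate 1 was far above the others. The log2 fold change of KEAP1 was 0.22 at 5 µM (95% confidence interval -0.03 to 0.47, edgeR quasi-likelihood test, adjusted p = 0.262) and 0.30 at 10 µM (0.05 to 0.55, adjusted p = 0.0639). When that library was left out these were 0.22 (adjusted p = 0.00108) and 0.14 (adjusted p = 0.0266), both past the test, and at 10 µM KEAP1 also passed without replicate 2 (0.36, adjusted p = 0.0464) or replicate 3 (0.38, adjusted p = 0.0318). With all libraries KEAP1 at 10 µM passed in DESeq2 (adjusted p = 0.0307). In edgeR it passed with upper-quartile factors (adjusted p = 0.0458), at least 1 CPM in 3 libraries (adjusted p = 0.0488) or the length and GC trend removed (adjusted p = 0.00196). This call was gained in 7 of 19 alternatives. The ratio of KEAP1 to NFE2L2 counts was 1.04 to 1.18 with DMSO, 1.06 to 1.18 with 5 µM and 0.932 to 1.38 with 10 µM. These ranges overlapped (two-sided exact permutation test, p = 1.0 at 5 µM and p = 0.9 at 10 µM against DMSO).

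**Figure D2:**
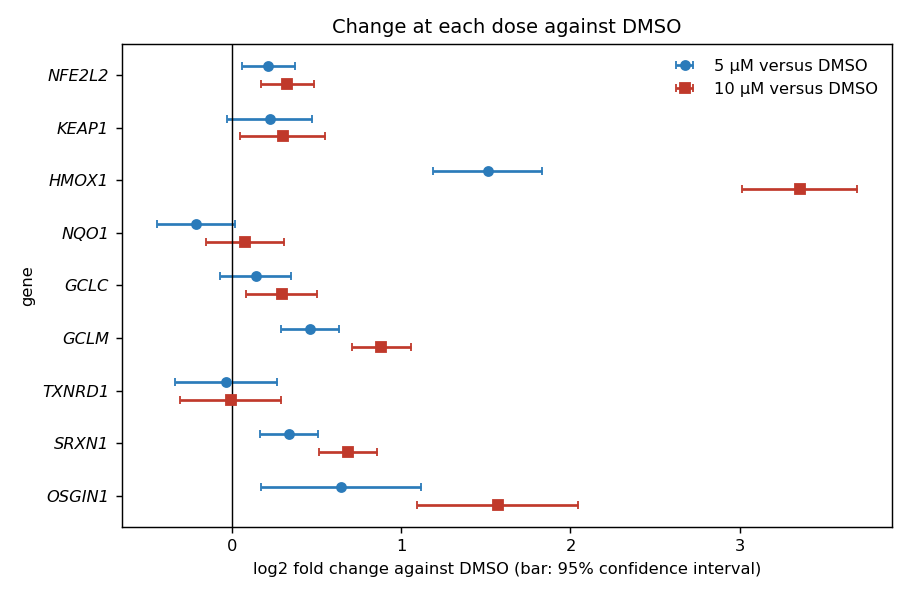
Log2 fold change of the 9 genes against DMSO (horizontal axis) at 5 µM (blue circles) and 10 µM (red squares), with 95% confidence intervals from the fit of all 9 libraries. The interval at 10 µM lies above 0 for all but NQO1 and TXNRD1, and HMOX1 reaches 3.36.

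Tested against each other, 10 µM gave higher levels than 5 µM for 4 of the 9 genes (HMOX1, OSGIN1, GCLM and SRXN1) and lower levels for 0, where 2.87% of all genes tested were higher and 5.53% lower, 8.4% in all. At a fold change of at least 1.5 these were 2 genes (HMOX1 and OSGIN1), beside 1.42% of all genes higher and 2.59% lower. The libraries did not overlap between doses in 6 of the 9 genes, all higher at 10 µM, beside 12.1% of all genes higher and 16.2% lower. The count of genes that were lower was 0 also at an unadjusted p under 0.05 and with DESeq2. The differences of NFE2L2 (0.11, 95% confidence interval -0.04 to 0.27) and GCLC (0.15, -0.06 to 0.36) did not pass the test, nor did those of KEAP1 (0.08, -0.17 to 0.32), NQO1 (0.29, 0.06 to 0.52) and TXNRD1 (0.03, -0.27 to 0.33). Without 5 µM replicate 1, 2 or 3 the number of genes higher at 10 µM was 1, 2 and 1. In the fit without 10 µM replicate 1 it was 7, where 8.8% of all genes were higher and 15.4% lower. HMOX1 was among the higher genes in every one of these fits. Calls over all genes between doses, 1379 with all libraries, were 543 to 4050 with a library left out.

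Levels were compared between genes per kilobase of annotated exons, in CPM per kb. In DMSO the order was NQO1 (71.3 ± 1.01), TXNRD1 (66.1 ± 1.13), KEAP1 (26.2 ± 1.09), SRXN1 (22.7 ± 1.30), NFE2L2 (16.3 ± 0.704), GCLM (8.70 ± 0.396), GCLC (5.30 ± 0.0145), HMOX1 (4.27 ± 0.100) and OSGIN1 (1.22 ± 0.165; SD, n = 3 each). No neighbours in that order overlapped between libraries. At 5 µM HMOX1 (12.2 ± 1.44 CPM per kb) overlapped GCLM (12.0 ± 0.539). At 10 µM HMOX1 had moved from the eighth place to the third, at 43.8 ± 8.60 CPM per kb. There its libraries overlapped those of TXNRD1 above it (65.7 ± 14.3). They also overlapped SRXN1 (36.5 ± 1.70) and KEAP1 (32.2 ± 5.67) below it. The genes that were highest in DMSO, NQO1 and TXNRD1, did not pass the test at either dose, nor did KEAP1, the next in order. The order rests on the union of all annotated exons of a gene, which can be longer than the transcripts A375 cells use.

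**Figure D3:**
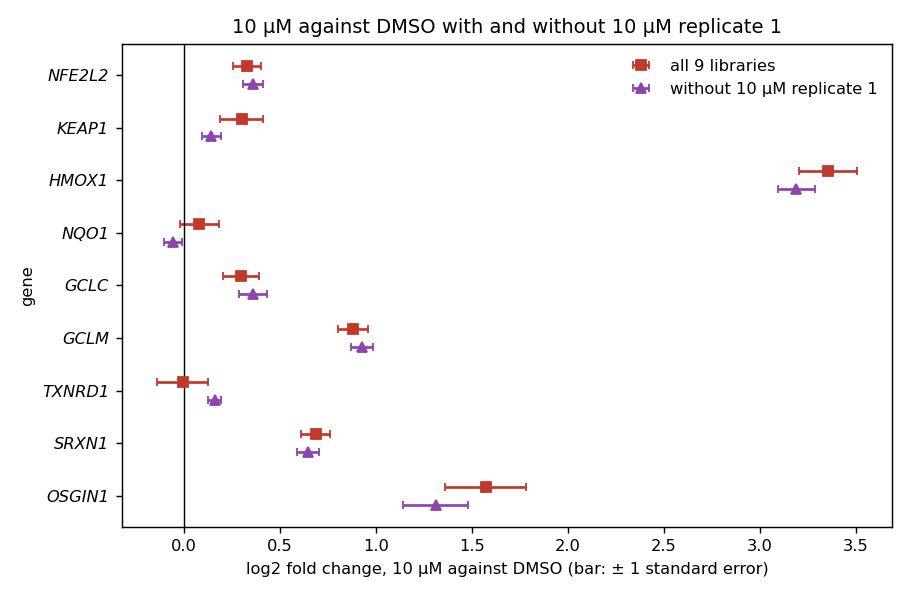
Log2 fold change at 10 µM against DMSO (horizontal axis) with all 9 libraries (red squares) and without 10 µM replicate 1 (purple triangles), with bars of 1 standard error. HMOX1, OSGIN1, GCLM and SRXN1 stay the highest of the 9, while KEAP1 moves from 0.30 to 0.14, TXNRD1 from -0.01 to 0.16 and NQO1 from 0.08 to -0.06.

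Around these 9 genes, a list of 15 regulators and partners of NRF2 was measured in full. At 10 µM 6 of them rose and 1 fell, where 16.4% of all genes rose and 18% fell. At 5 µM 3 rose and 1 fell, where 4.4% and 5.81% of all genes did. Without 10 µM replicate 1 these were 8 and 1 at 10 µM, beside 23% and 25.8% of all genes, and 5 and 2 at 5 µM, beside 16.5% and 17.6%. The count called at 5 µM was 1 without DMSO replicate 2 or 3 and 2 without DMSO replicate 1 or any 5 µM library. Calls over all genes at 5 µM, 1676 with all libraries, were 749 without DMSO replicate 1 and 673 to 5721 with a library left out. SQSTM1, whose product p62 binds KEAP1 and carries it to autophagy, was at 639 to 677 CPM with DMSO, 861 to 894 CPM with 5 µM and 1374 to 1795 CPM with 10 µM. Its log2 fold change was 0.43 at 5 µM (edgeR quasi-likelihood test, adjusted p = 0.0225) and 1.22 at 10 µM (adjusted p = 1.50e-05). The 3 small MAF genes, whose products pair with NRF2 on DNA, all rose at 10 µM, with log2 fold changes of 0.69 for MAFK, 0.56 for MAFF and 0.45 for MAFG. MAFK also rose at 5 µM, by 0.40. DPP3, which binds KEAP1 in competition with NRF2, rose at both doses, by 0.38 and 0.59. SYVN1, a ubiquitin ligase of the endoplasmic reticulum that can act on NRF2, rose at 10 µM by 0.28.

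NFE2L3, which encodes the related factor NRF3, fell by 0.62 at 5 µM (edgeR quasi-likelihood test, adjusted p = 0.00110) and by 0.88 at 10 µM (adjusted p = 3.08e-05). The repressor gene BACH1 did not pass the test. It was at 43.4, 44.9 and 44.7 CPM in DMSO, 41.6, 33.5 and 36.4 CPM at 5 µM and 19.0, 41.5 and 37.2 CPM at 10 µM. All 6 treated libraries lay below DMSO, and the lowest was 10 µM replicate 1, with a log2 fold change at 10 µM of -0.44 (SE 0.23, adjusted p = 0.167). The changes of BACH2, NFE2L1, CUL3, RBX1, BTRC, GSK3B and PALB2 at 10 µM, between -0.17 and 0.20, did not pass the test. The counts of SQSTM1, MAFK and SYVN1 were not whole numbers in any library, and those of CUL3 and DPP3 in 7 of 9, so some of their reads were shared out among several genes. The values of the 9 genes of the opening list were whole in every library.

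**Figure D4:**
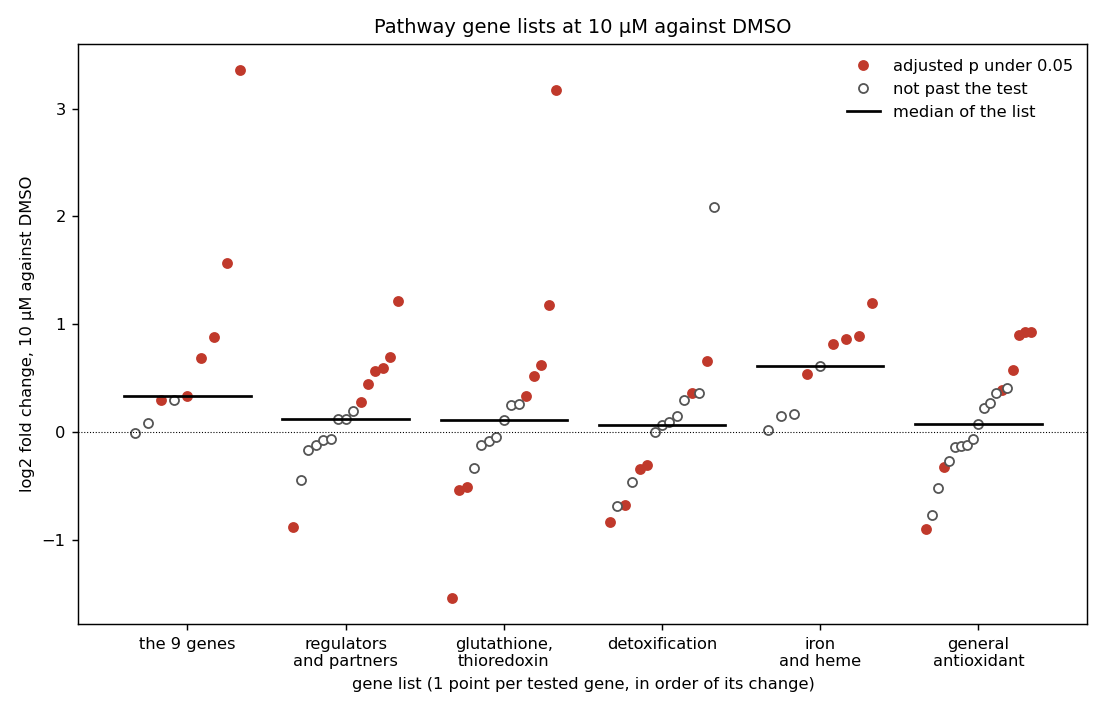
Log2 fold change at 10 µM against DMSO (vertical axis) for every tested gene of the 9 and of 5 further lists (horizontal axis), in order of change within a list. Filled points passed an adjusted p under 0.05 and open points did not. The bar is the median, which is 0.33 for the 9 genes and 0.62 for the iron and heme genes. The latter is the value of SLC40A1, an open point of a gene near the floor. The high open point among the detoxification genes is AKR1B10.

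Of 16 further genes listed for glutathione and thioredoxin, 15 were tested. At 10 µM 5 rose (CHAC1, SLC3A2, PRDX1, TXN and GSS) and 3 fell (ABCC3, ABCC1 and ABCC4), beside the same 16.4% and 18% of all genes. At 5 µM 1 rose (SLC3A2) and 1 fell (ABCC3), beside 4.4% and 5.81%. Their median log2 fold change at 10 µM was 0.11. Without 10 µM replicate 1 these counts were 5 and 4 at 10 µM, beside 23% and 25.8% of all genes, and 6 and 6 at 5 µM, beside 16.5% and 17.6%. At 10 µM the 8 calls became 5 without DMSO replicate 2 and 4 without DMSO replicate 3. Calls over all genes at 10 µM, 5634 with all libraries, were 3772 to 8170 with a library left out. CHAC1, which degrades glutathione, is known as a target of the factor ATF4. CHAC1 had means of 3.17 ± 0.626 CPM with DMSO and 28.5 ± 7.02 CPM with 10 µM (SD over 3 libraries), and rose by 3.17 on the log2 scale (edgeR quasi-likelihood test, adjusted p = 5.96e-06). At 5 µM CHAC1 was at 4.69 ± 0.774 CPM (adjusted p = 0.136). SLC3A2, the heavy chain of the cystine transporter, rose by 0.58 at 5 µM and 1.18 at 10 µM. SLC7A11, its light chain and a widely used NRF2 target, was at 36.5, 38.1 and 37.0 CPM in DMSO and 21.4, 30.8 and 35.9 CPM at 10 µM and did not pass the test (log2 fold change -0.34, adjusted p = 0.120). ABCC3, an exporter of conjugates, had means of 78.2 ± 2.26, 57.5 ± 2.61 and 26.8 ± 1.91 CPM in the order of dose, and fell at both doses (log2 fold change at 10 µM of -1.54, edgeR quasi-likelihood test, adjusted p = 1.01e-06). PRDX1, TXN, GSS, ABCC1, ABCC4 and SLC7A11 fall outside the rule for named genes and were named after their values were seen.

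Of the targets that serve the supply of NADPH, TKT, a transketolase, fell by 0.48 at 10 µM (adjusted p = 0.00718 in edgeR). IDH1, an isocitrate dehydrogenase, was at 61.5 ± 1.42 CPM in DMSO and 65.0 ± 1.37 CPM at 10 µM (adjusted p = 0.378). Of 16 detoxification targets, 15 were tested, and at 10 µM 2 rose (ABHD4 and PTGR1) and 4 fell (AKR1C2, AKR1C3, TRIM16 and PIR), which is near the 16.4% and 18% of all genes. These 6 calls became 3 without DMSO replicate 1 or 2 and 2 without DMSO replicate 3. Calls over all genes fell too without DMSO replicate 1, from 5634 to 3886 at 10 µM and from 1676 to 749 at 5 µM. At 5 µM 0 rose in edgeR, with 1 higher at an unadjusted p under 0.05, and 2 fell (AKR1C2 and AKR1C3), beside 4.4% and 5.81% of all genes. The count called at 5 µM was 0 without DMSO replicate 3 or 5 µM replicate 1, 1 without DMSO replicate 1 or 2, 5 µM replicate 2 or 3 or 10 µM replicate 2, and 6 (1 higher and 5 lower) without 10 µM replicate 1, where 16.5% of all genes were higher and 17.6% lower. AKR1C3, an aldo-keto reductase, fell by 0.62 at 5 µM (adjusted p = 0.0101) and by 0.68 at 10 µM (adjusted p = 0.00184), and ABHD4 rose by 0.66 at 10 µM (adjusted p = 0.00411). Reads of AKR1C1, AKR1C2 and AKR1C3, as of TRIM16 and TRIM16L, are shared between near-identical copies, and their counts were not whole in any library. AKR1B10 had the largest fitted change of this list, 2.09, at 0.160 ± 0.146 CPM in DMSO and 0.692 ± 0.417 CPM at 10 µM, and did not pass the test (adjusted p = 0.144). AKR1B10, PTGR1, AKR1C2 and PIR were named after their values were seen.

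Of 9 genes of iron and heme handling, 5 rose at 10 µM (FTH1, HMOX2, FTL, BLVRB and TFRC) and 0 fell, beside 16.4% and 18% of all genes. At 5 µM 1 rose (FTH1), beside 4.4% of all genes. That count was 0 without any 1 of the DMSO or 5 µM libraries. Calls over all genes at 5 µM fell too without DMSO replicate 1, from 1676 to 749. In the fit without 10 µM replicate 1, 3 rose and 1 fell at 5 µM, beside 16.5% and 17.6%. The count that fell at 10 µM was also 0 at an unadjusted p under 0.05. Their median log2 fold change at 10 µM was 0.62, and 5 rose also without 10 µM replicate 1. This median is the value of SLC40A1, a gene near the floor at 0.378 ± 0.0958 CPM in DMSO. SLC40A1 did not pass the test at 10 µM (SE 1.03, edgeR quasi-likelihood test, adjusted p = 0.688). FTH1, the heavy chain of the iron store ferritin, had means of 2546 ± 57.5, 3756 ± 67.3 and 5818 ± 1309 CPM in the order of dose (SD over 3 libraries), with a log2 fold change of 0.56 at 5 µM (edgeR quasi-likelihood test, adjusted p = 0.0203) and 1.19 at 10 µM (adjusted p = 8.85e-05). FTL, the light chain, was at 666 ± 12.1 CPM in DMSO and 710 ± 40.0 CPM at 5 µM, and rose to 1211 ± 326 CPM at 10 µM (log2 fold change 0.86, adjusted p = 0.00188). HMOX2 rose by 0.89 at 10 µM (adjusted p = 0.00173), beside 3.36 for HMOX1. In FTH1, FTL and HMOX2 alike the highest library was 10 µM replicate 1. TFRC, the transferrin receptor, was at 204, 206 and 206 CPM in DMSO and at 198, 340 and 355 CPM at 10 µM, with replicate 1 the lowest of these 6 libraries. The counts of FTH1 were not whole in any library. BLVRB, TFRC and SLC40A1 were named after their values were seen.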

How the data were processed

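Of A375 RNA 9 libraries were made, 3 in each group. What the authors deposited is a table of expected counts (estimated counts per gene symbol, not scaled to library size). The submitters' processing notes list RSEM 1.2.15, Bowtie2 2.1.0 and hg38. Neither annotation nor strand setting is given in the sources used here. The paper describes oligo-dT selection and the series design describes depletion of ribosomal RNA. Between 10.6% and 13.8% of the values of a library were not whole, and all were rounded.

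The test was that of edgeR 4.0.16, run in R 4.3.3 (TMM factors of 0.957 to 1.029, filterByExpr, 3 groups in 1 quasi-likelihood fit), with Benjamini-Hochberg adjustment over 16417 genes. A gene was called at an adjusted p under 0.05 with no limit on fold. The paper gives Student's test in GraphPad Prism for its experiments other than tumor progression and describes no model for the counts. Its libraries are described as strand-specific. Standard errors come from dividing each log2 fold change by the root of its F statistic. CPM use TMM-scaled library sizes. Scripts were tested on simulated data. Alternatives used DESeq2 1.42.0, limma 3.58.1 (voom), other scalings and filters, a replicate block, each library left out, only the groups compared, a fold of at least 1.5, no ribosomal RNA genes and, added after the data were seen, removal of a trend with length and GC content of transcripts (known for 15323 genes).

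The 9 genes and the pathway lists, written from general knowledge, were chosen with earlier results of these data known. Genes named 1 by 1 are the 9, all 15 regulators and partners, the 3 genes of each other pathway list with the smallest p at 10 µM against DMSO, and the 5 genes most correlated with HMOX1 and with NFE2L2. The result for 1 gene of a pathway list, and the counts over that list, are left out. Counts give the depth. Intervals cover the spread between these libraries. Start-site windows are from RefSeq (GRCh38.p14) and positions from GENCODE 29.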

Additional observations from a re-analysis of the deposited data

How the results depend on the processing

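For the 9 genes in 3 comparisons, 446 of 513 values kept their direction and their side of the threshold, 29 lost and 26 gained the call, and 12 reversed. The number of the 9 genes called at 5 µM, 3, was 5 with DESeq2, 8 with only the compared groups fitted, 6 with the length and GC trend removed and 1 with a fold of at least 1.5, and 2 to 7 with a library left out. For 10 µM against 5 µM, 4, it was 1 with only the compared groups and 2 with a fold of at least 1.5, and 1 to 7 with a library left out. At 10 µM, 6, it was 4 to 8 under all alternatives. Over all genes, 1676 were called at 5 µM, and 2676, 6331, 2814 and 799 under DESeq2, the compared groups only, the removed trend and the fold limit, with 673 to 5721 when a library was left out. For 10 µM against 5 µM 1379 were called, and 2462, 335, 2071 and 658 under the same alternatives, with 543 to 4050 when a library was left out. Of the pathway lists at 10 µM, 4 to 9 regulators (7 with all libraries), 4 to 9 glutathione and thioredoxin genes (8) and 2 to 8 detoxification targets (6) were called under all alternatives. At 10 µM 5634 were called, 3137 with the fold limit, and 3772 to 8170 when a library was left out.

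TXNRD1 at 10 µM reversed from -0.01 to 0.0023 under DESeq2-type size factors and DESeq2, 0.031 under upper-quartile factors, 0.012 with at least 1 CPM in 3 libraries, 0.00018 without ribosomal RNA genes, 0.062 with the trend removed, 0.00042 without DMSO replicate 2 and 0.16 without 10 µM replicate 1 (-0.11 to 0.16 with a library left out). From 5 µM to 10 µM it reversed to -0.072 and -0.063 without 10 µM replicates 2 and 3 (up to 0.20 with another left out). NQO1 at 10 µM reversed to -0.056, and KEAP1 from 5 µM to 10 µM to -0.081, without 10 µM replicate 1 (up to 0.15 for each with another left out). The cause was not tested.

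Libraries that share a replicate number did not deviate together (correlations of -0.0423 to 0.0361). Whether cultures with the same number were grown or treated together is not stated, and these correlations cannot show it. With a replicate block, 4, 5 and 4 of the 9 genes were called at 5 µM, at 10 µM and between doses, and 1260, 5312 and 990 of all genes. OSGIN1 at 5 µM gained its call under the block and GCLC at 10 µM lost it.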

Other observations

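Of 19 genes of general antioxidant defence outside the NRF2 target lists, all were tested. They include TXNIP, which encodes an inhibitor of thioredoxin and not an antioxidant enzyme. At 10 µM 5 rose (GLRX2, GPX3, GPX1, TXNRD2 and SOD1) and 2 fell (CAT and GPX8), where 16.4% of all genes rose and 18% fell. At 5 µM 1 rose (GPX3) and 3 fell (TXNIP, CAT and SOD2), where 4.4% of all genes rose and 5.81% fell. CAT, which encodes catalase, had means of 106 ± 2.93, 80.8 ± 3.59 and 56.8 ± 2.73 CPM in the order of dose (SD over 3 libraries) and fell at both doses, with log2 fold changes of -0.40 (edgeR quasi-likelihood test, adjusted p = 0.00715) and -0.91 (adjusted p = 1.30e-05). GLRX2, a glutaredoxin, and GPX3, the secreted glutathione peroxidase, both rose by 0.93 at 10 µM. Without 10 µM replicate 1, 5 of the 19 rose and 4 fell at 10 µM, beside 23% and 25.8% of all genes, and 7 rose and 4 fell at 5 µM, beside 16.5% and 17.6%. The count called at 5 µM was 2, both lower, without any 1 of the DMSO or 5 µM libraries. Calls over all genes at 5 µM fell too without DMSO replicate 1, from 1676 to 749. GPX1, TXNRD2, SOD1, GPX8, SOD2 and TXNIP were named after their values were seen.

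TXNIP, the inhibitor of thioredoxin, was lowest at the lower dose. It was at 56.7, 57.4 and 57.0 CPM in DMSO, at 30.7, 31.9 and 32.9 CPM at 5 µM and with a mean of 51.8 ± 1.91 CPM at 10 µM (SD, n = 3). The groups did not overlap, and the level at 10 µM was between the others. TXNIP fell by 0.84 at 5 µM (edgeR quasi-likelihood test, adjusted p = 9.19e-05), while its change of -0.14 at 10 µM did not pass the test (adjusted p = 0.146). The difference between doses, 0.70, passed the test itself (adjusted p = 0.000391).

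Over the 9 libraries, the genes whose log2 CPM correlated best with HMOX1 were UCA1, SNX11, DUSP14, IL1RL1 and RCL1 (Pearson's r of 0.997 to 0.993), and 298 genes exceeded 0.95. For NFE2L2 they were AGO3, APOL2, DDX52, NMNAT1 and RNF144B (0.979 to 0.976), with 61 genes over 0.95. These values describe 9 libraries in 3 groups that share the same treatment steps.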
